A study of Mus musculus with 3 samples.

Results

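The chemokine and chemokine receptor genes were described in sorted mouse mammary cells. They were taken as all protein-coding genes of the deposited tables whose mouse symbol begins with Ccl, Cxcl, Cx3cl, Xcl, Ccr, Cxcr, Cx3cr or Xcr followed by a digit, which gave 56 of 52661 gene identifiers, 37 ligands and 19 receptors. Bulk RNA sequencing was done on 3 populations labelled as PROCR-positive mammary epithelial cells (PROCR is the protein C receptor), all from a gate positive for the epithelial adhesion protein EpCAM with high CD49f, an integrin chain. The CD36+ library came from cells positive for CD36 and negative for podoplanin (PDPN), with a title of Cdh5 positive, and was set beside the double-negative library (negative for CD36 and PDPN; Cdh5 positive) and the PDPN+ library (CD36 negative, PDPN positive; Cdh5 negative). The labels give no allele, treatment, strain or age, and the number of mice or cells per library is not stated in them. Each population had 1 library, so no value has a replicate error, no test between populations was possible, and every difference compares libraries.

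Chemokines are small secreted proteins that bind G protein-coupled receptors and direct the movement of leukocytes. Their families are named by the spacing of the first cysteines (CC, CXC, CX3C and XC), and most genes lie in clusters that arose by duplication. Endothelial and epithelial cells mostly make ligands, and the receptors are mainly carried by leukocytes. Venular endothelium displays chemokines to leukocytes in the blood, and CCL21 and CXCL13 draw T cells and B cells into lymphoid tissue. In the mammary gland, basal and stromal cells make ligands such as CXCL12 and CXCL14.

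Promoter sequences are shown for 2 sets of neighbours whose levels are set side by side further on, the CXCR2 ligands and the CXCR3 ligands, and for Cxcl14, which was high in the PDPN+ library. They are the 250 bases before the RefSeq start in build GRCm38.p6, written 5′ to 3′ on the strand of the gene. Capitals mark matches, on either strand, to the kappaB motif, which NF-kappa B binds, or to the core of the interferon-stimulated response element, which is GAAA, any 2 bases and GAAA again. Both were searched in all windows of the same length.
Cxcl1, chr5:90890995-90891244, plus strand: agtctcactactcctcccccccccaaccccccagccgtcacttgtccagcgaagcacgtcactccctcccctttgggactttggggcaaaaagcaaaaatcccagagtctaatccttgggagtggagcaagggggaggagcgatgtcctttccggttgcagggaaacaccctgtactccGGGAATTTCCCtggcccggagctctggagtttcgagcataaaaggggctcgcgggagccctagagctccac
Cxcl2, chr5:90903649-90903898, plus strand: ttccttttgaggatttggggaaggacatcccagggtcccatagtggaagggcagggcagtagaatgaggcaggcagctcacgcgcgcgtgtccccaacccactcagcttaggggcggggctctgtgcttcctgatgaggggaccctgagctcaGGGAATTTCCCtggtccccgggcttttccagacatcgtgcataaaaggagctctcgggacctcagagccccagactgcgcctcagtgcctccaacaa
Cxcl3, chr5:90785851-90786100, plus strand: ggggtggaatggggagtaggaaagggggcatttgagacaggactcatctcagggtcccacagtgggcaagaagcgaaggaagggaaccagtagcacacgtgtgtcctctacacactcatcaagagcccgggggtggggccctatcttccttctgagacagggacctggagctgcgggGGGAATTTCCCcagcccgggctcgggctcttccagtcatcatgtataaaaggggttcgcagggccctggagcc
Cxcl9, chr5:92328080-92328329, minus strand: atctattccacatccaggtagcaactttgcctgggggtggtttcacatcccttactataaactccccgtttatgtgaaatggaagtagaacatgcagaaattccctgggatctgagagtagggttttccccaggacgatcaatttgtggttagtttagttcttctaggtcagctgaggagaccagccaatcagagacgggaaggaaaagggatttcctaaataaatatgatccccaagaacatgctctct
Cxcl10, chr5:92348890-92349139, minus strand: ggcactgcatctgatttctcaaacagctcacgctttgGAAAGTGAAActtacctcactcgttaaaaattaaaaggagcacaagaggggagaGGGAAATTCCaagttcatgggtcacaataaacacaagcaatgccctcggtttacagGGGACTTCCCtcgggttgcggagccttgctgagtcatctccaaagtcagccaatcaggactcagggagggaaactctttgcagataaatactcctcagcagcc
Cxcl14, chr13:56296552-56296801, minus strand: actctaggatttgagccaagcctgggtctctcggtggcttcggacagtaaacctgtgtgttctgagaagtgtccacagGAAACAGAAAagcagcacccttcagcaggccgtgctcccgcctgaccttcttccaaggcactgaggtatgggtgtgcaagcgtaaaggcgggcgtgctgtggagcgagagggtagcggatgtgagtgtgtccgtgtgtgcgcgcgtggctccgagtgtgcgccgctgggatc
The promoters of Cxcl1, Cxcl2 and Cxcl3 each hold the run GGGAATTTCCC, which matches the kappaB motif on both strands at overlapping places. It begins at position -71 in Cxcl1, -97 in Cxcl2 and -73 in Cxcl3, where -1 is the base before the start. Cxcl10 has 2 kappaB matches and 1 match to the interferon element core, Cxcl14 has 1 match to that core, and neither run of letters is in the Cxcl9 window. Of the 56 genes, 42 had a promoter entry, and the abundant ones without an entry were Ccl2, Ccl7, Ccl11 and Cxcl16. A kappaB match was found for 8 of the 42 genes (19.0%), against 1279 of 32817 promoter windows (3.90%). The interferon element core was found for 3 of the 42 genes (7.14%), against 974 of the windows (2.97%). A gene was counted if any of its windows matched, and the 42 genes had 49 windows, so the units of these shares differ. The 8 genes with a kappaB match were Cxcl1, Cxcl2, Cxcl3, Cxcl10, Ccl9, Ccl20, Ccr3 and Ccr6. Of these 8 genes, 3 reached 10 CPM in a library, as did 11 of the 42 genes with a promoter entry. A match is a run of letters and was not examined as a binding site.

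Total estimated counts were between 51138993 and 67675778 per library. Levels are given in CPM after TMM scaling where libraries are compared, and in deposited TPM, which is corrected for transcript length, where genes are compared. The endothelial marker list had 12, 12 and 4 of 12 genes at 10 CPM or more in the CD36+, double-negative and PDPN+ libraries, and the basal epithelial list had 2, 5 and 8 of 8. The first 2 libraries thus carried endothelial markers under a label of epithelial cells. Fewer cells of a type and less RNA per cell cannot be told apart in bulk samples. Among leukocyte lists, the pan-leukocyte genes summed to 80.9, 85.7 and 45.4 TPM in the same order. They had 6, 3 and 3 of 7 at 1 CPM or more, and 3, 2 and 1 at 10 CPM or more. Ptprc, which encodes CD45, stood at 1.10, 0.970 and 0.798 CPM. Lcp1 stood at 50.6, 68.1 and 3.07 CPM, Arhgdib at 33.0, 40.9 and 20.0 CPM, and Cd53 at 12.8, 0 and 0 CPM. Coro1a stood at 5.93, 4.06 and 0 CPM and Cd52 at 1.62, 0.0198 and 1.76 CPM, and Laptm5 had 0, 2 and 1 counts. The T and NK cell genes had 1, 3 and 2 of 10 at 1 CPM or more. Cd3d stood at 8.83, 8.38 and 5.53 CPM in the same order. Cd3g reached 6.14 CPM and Cd8a 1.82 CPM in double-negative RNA, and Trac 3.99 CPM in PDPN+ RNA. Cd2 and Nkg7 had 0 counts in all 3 libraries. At 1 CPM or more, B cell genes had 3, 1 and 2 of 6, macrophage and monocyte genes 2, 1 and 2 of 9, dendritic cell genes 2, 2 and 1 of 5, and neutrophil genes 1 of 6 in each library. Mast cell genes had 0 of 5 throughout and platelet genes 1, 3 and 1 of 5. Pericyte genes had 3, 2 and 5 of 5 at 1 CPM or more, luminal epithelial genes 5, 5 and 6 of 7, and venous genes 6 of 6 in each. At 10 CPM or more, pericyte genes had 2, 2 and 1, luminal genes 4, 3 and 3, and venous genes 6, 6 and 4. Pericyte genes summed to 72.2, 54.9 and 27.6 TPM and luminal genes to 227, 242 and 667 TPM. Venous genes summed to 36136, 31906 and 481 TPM.

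Of the 56 genes, 15 reached 10 CPM in at least 1 library, 14 ligands and the receptor Cxcr4. Another 10 lay between 1 and 10 CPM, 20 had reads but stayed below 1 CPM in each library, and 11 had 0 counts in all 3. Ligand transcripts summed to 4970 TPM in CD36+, 12093 TPM in double-negative and 4963 TPM in PDPN+ RNA. Receptor transcripts summed to 25.6, 12.8 and 22.3 TPM. The libraries differed in which ligand made up that sum. In the CD36+ library, Cxcl1 alone gave 75.0% of ligand TPM. In the double-negative library, Ccl21a gave 50.1% and Cxcl1 39.9%. In the PDPN+ library 5 ligands shared it, with Cxcl1 at 21.7%, Cxcl13 at 19.0%, Cxcl14 at 17.2%, Ccl7 at 16.6% and Ccl2 at 13.8%. With Ccl21a left out, the ligand sums were 4914, 6038 and 4873 TPM, so the larger sum of the double-negative library lay mostly in that gene.

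**Figure D1:**
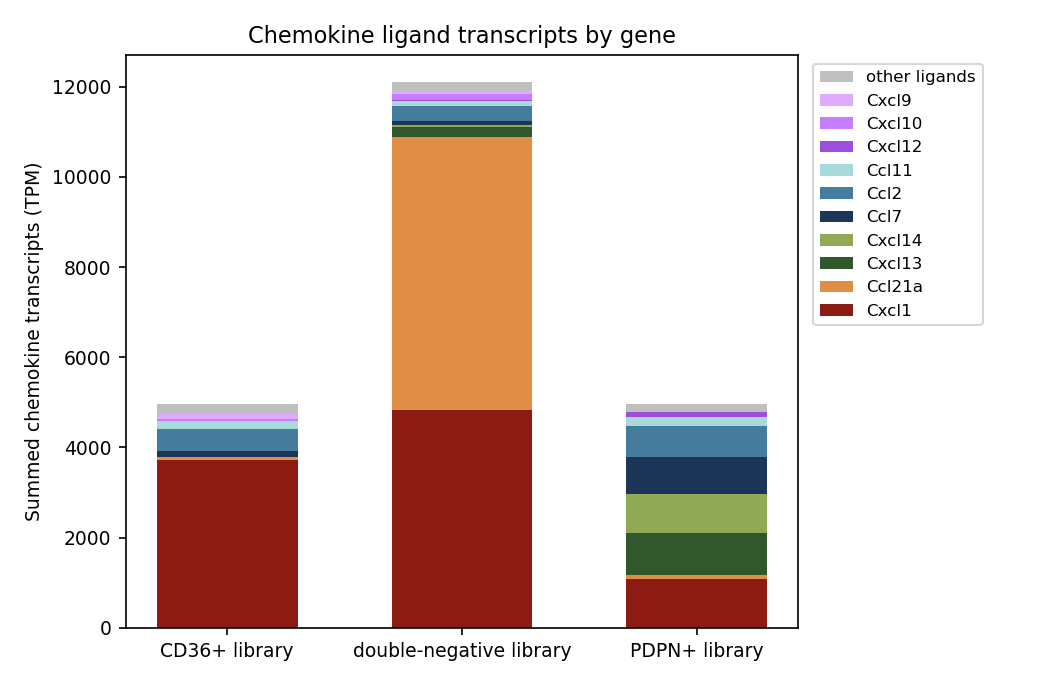
Stacked bars give the summed deposited TPM of the chemokine ligand genes in the CD36+, double-negative and PDPN+ libraries (1 library each), divided by gene. Cxcl1 fills most of the CD36+ bar, Ccl21a and Cxcl1 fill most of the double-negative bar, and the PDPN+ bar is spread over several genes.

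**Figure D2:**
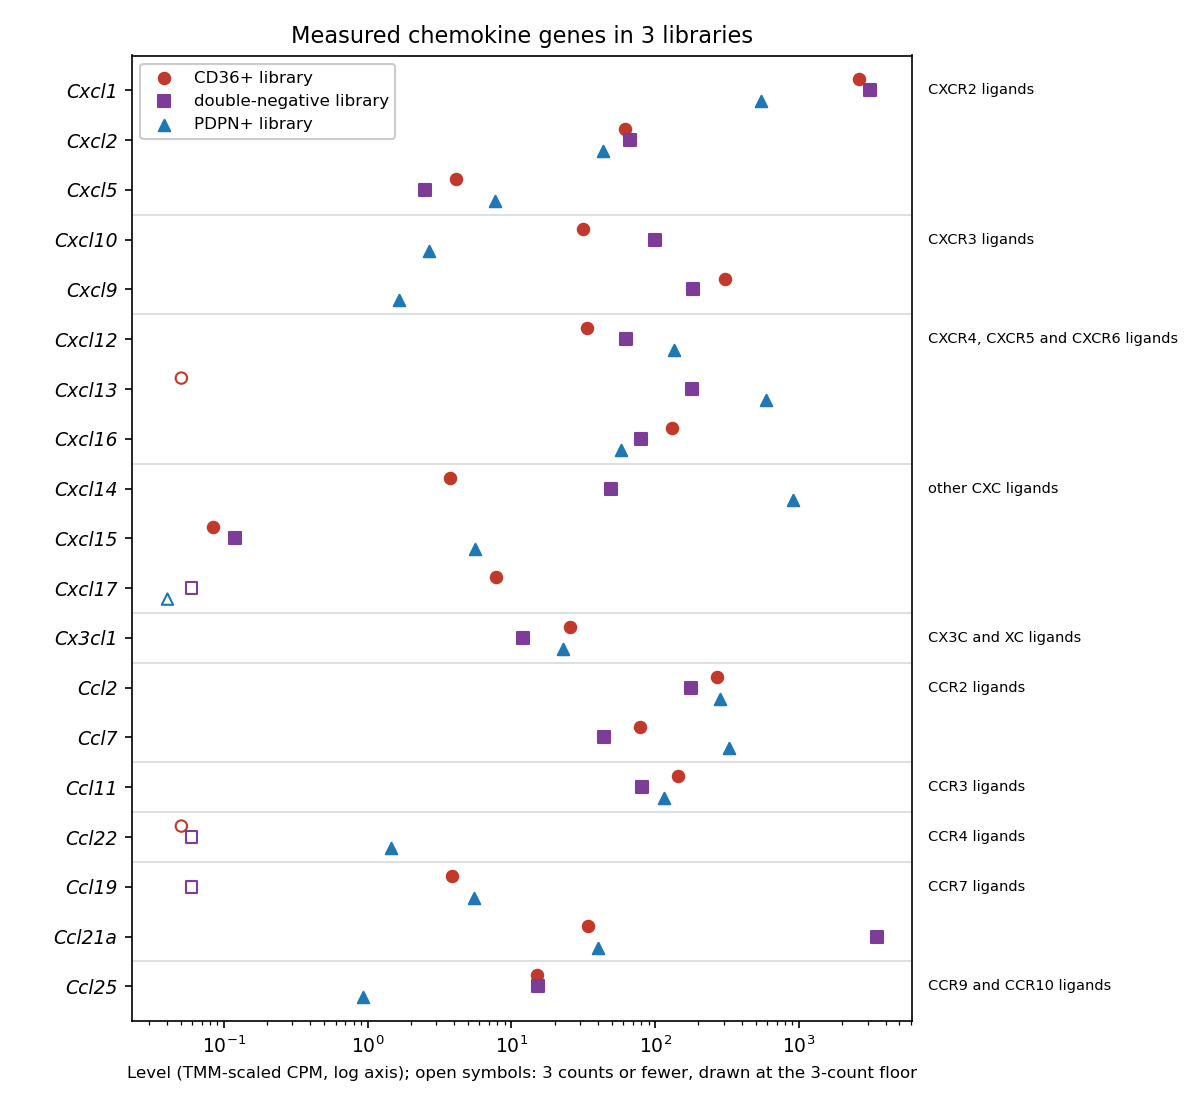
Points give the level in TMM-scaled CPM (log axis) of the 19 ligand genes that reached 1 CPM anywhere, grouped by the receptor they bind, in the CD36+, double-negative and PDPN+ libraries. Open symbols mark 3 counts or fewer and are drawn at the 3-count floor. Among ligands above 10 CPM, the widest gaps are those of Cxcl13, Cxcl14, Cxcl9 and Ccl21a, and the levels of Cxcl2, Ccl2 and Ccl11 lie close together in all 3 libraries.

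To be called apart, a member needed a 4-fold ratio (prior count of 2) and 10 CPM or more on its higher side. Between the CD36+ and PDPN+ libraries, 15 members reached 10 CPM, and 5 were called higher and 4 lower in the CD36+ library. The rule called 15.1% of 9387 genes higher and 17.6% lower, 32.7% in either direction. Between the double-negative and PDPN+ libraries, 14 members reached 10 CPM, with 5 higher and 2 lower, where 14.9% of 9515 genes were higher and 19.3% lower, 34.2% together. With a limit of 2-fold in place of 4-fold, 5 of the 14 were higher and 4 lower there, against 25.4% and 30.2% of genes. The same limit gave 6 higher and 4 lower of the 15 in the CD36+ against the PDPN+ library, against 25.3% and 28.0% of genes. Between the CD36+ and double-negative libraries, 1 of 15 members was higher and 3 lower, where 12.2% of 8968 genes were higher and 11.9% lower, 24.2% together. At 2-fold, 2 of the 15 were higher and 4 lower there, against 22.9% and 21.0% of genes. Over the 25 members that reached 1 CPM in 1 library or more, the median log2 ratio was -0.07, -0.51 and -0.01 in these 3 comparisons, and over all 17533 genes at that level it was -0.07, -0.05 and 0.00. Each pair of these comparisons shares a library, the PDPN+ one in the first 2. The median log2 ratio of all genes moved by -0.40, -0.23 and -0.17 in the 3 comparisons under total-count scaling, by 0.27, 0.28 and -0.01 under upper quartile scaling, and by -0.47, -0.35 and -0.12 with the deposited TPM.

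**Figure D3:**
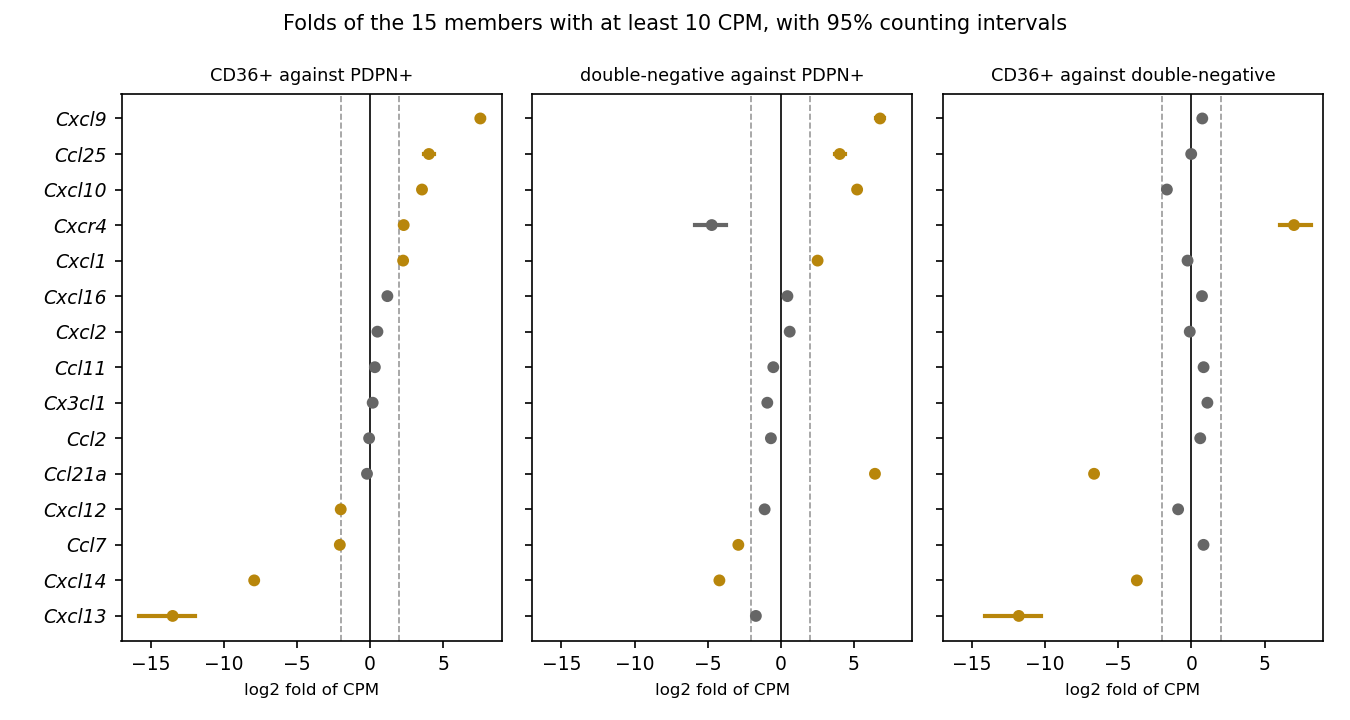
Points give the log2 fold of CPM for the 15 members that reached 10 CPM anywhere, in 3 comparisons, and bars give 95% counting intervals, which for most genes are narrower than the point. Dashed lines mark 4-fold, and gold marks members called apart. Cxcl9, Cxcl10, Ccl25 and Cxcl1 lie right of the 4-fold line in both comparisons against the PDPN+ library, and Cxcl14 and Ccl7 lie left of it in both.

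The ligands of CXCR2 attract neutrophils. Cxcl1, the chief mouse neutrophil chemokine of this group (mm10 chromosome 5, plus strand, bases 90891241 to 90893115), reached 2595 CPM in CD36+, 3111 CPM in double-negative and 542 CPM in PDPN+ RNA. By TPM it ranked 24th, 17th and 106th among all genes, so it was abundant in each library. It was 4.78-fold above its PDPN+ level in CD36+ RNA (4.73 to 4.84, an exact 95% interval that, like all those given here, covers counting error alone) and 5.73-fold above its PDPN+ level in double-negative RNA (5.67 to 5.80), while by TPM the first of these folds was 3.46. The log2 ratio of the CD36+ against the PDPN+ library was 1.85 with total counts and 1.79 by TPM, which ends that call. Between the CD36+ and double-negative libraries it differed by 1.20-fold, lower in the CD36+ library. Cxcl2, which acts on the same receptor (mm10 chromosome 5, plus strand, bases 90903871 to 90905938), reached 61.7 CPM in CD36+, 66.6 CPM in double-negative and 43.6 CPM in PDPN+ RNA. It was within 2-fold in each comparison. Cxcl5 stood at 4.12, 2.50 and 7.69 CPM in the CD36+, double-negative and PDPN+ libraries, which puts its highest level in the library where Cxcl1 was lowest. Cxcl3 had 5, 20 and 1 counts. Per length, Cxcl1 stood at 3726 TPM in the CD36+ library, Cxcl2 at 73.8 TPM and Cxcl3 at 0.0282 TPM, and the printed promoters of these 3 genes share the kappaB run.

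Both members that bind CXCR3, a receptor of activated T and NK cells, were much higher in the libraries with endothelial markers. Cxcl9, an interferon-gamma-induced ligand (mm10 chromosome 5, minus strand, bases 92321347 to 92328079), reached 306 CPM in CD36+, 183 CPM in double-negative and 1.65 CPM in PDPN+ RNA. The fold over the PDPN+ library was 186 in the CD36+ library (155 to 224) and 111 in the double-negative library (92.7 to 134). Cxcl10, which interferons of several types induce (mm10 chromosome 5, minus strand, bases 92346638 to 92348889), reached 31.5 CPM in CD36+, 100.5 CPM in double-negative and 2.69 CPM in PDPN+ RNA. Its folds over the PDPN+ library were 11.7 (10.1 to 13.6) and 37.3 (32.4 to 43.2). The order of the first 2 libraries was opposite for these neighbours, with Cxcl9 1.68-fold higher (1.64 to 1.72) and Cxcl10 3.19-fold lower (3.03 to 3.37) in CD36+ than in double-negative RNA. On the other strand, exons of Art3 overlap 5.91% of the exonic bases of Cxcl10, and Art3 stood at 33.5, 71.8 and 0.0440 TPM in the CD36+, double-negative and PDPN+ libraries. The labels do not state whether counting used strand, so reads in that stretch cannot be assigned to either gene with certainty.

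Cxcl12, the ligand of CXCR4 and a retention signal for stem and progenitor cells (mm10 chromosome 6, plus strand, bases 117168535 to 117181367), reached 33.4 CPM in CD36+, 62.6 CPM in double-negative and 134 CPM in PDPN+ RNA. It was 4.03-fold below its PDPN+ level in CD36+ RNA (3.83 to 4.23), just past the 4-fold limit, and 2.15-fold below its PDPN+ level in double-negative RNA (2.06 to 2.23). Upper quartile scaling (log2 ratio -1.74) and TMM over the pair (-1.96) end the call against the PDPN+ library. By TPM the levels were 11.5, 21.3 and 116, which widened both gaps. The effective length of Cxcl12 was 1145, 1560 and 462 bases in the same libraries. Cxcl13, the B cell chemokine that binds CXCR5 (mm10 chromosome 5, plus strand, bases 95956951 to 95961068), had 3 counts in CD36+ RNA and reached 181 CPM in double-negative and 588 CPM in PDPN+ RNA. The CD36+ level was 3569-fold below the double-negative level (1221 to 17310) and 11605-fold below the PDPN+ level (3971 to 56278). Cxcl13 was 3.25-fold below its PDPN+ level in double-negative RNA (3.18 to 3.33). The 2 libraries with endothelial markers thus differed more in Cxcl13 than in Ccl21a or Cxcr4. Cxcl16, a membrane-anchored ligand of CXCR6 that is shed by proteases (mm10 chromosome 11, minus strand, bases 70453983 to 70459984), reached 132 CPM in CD36+, 79.7 CPM in double-negative and 58.1 CPM in PDPN+ RNA. It was 2.27-fold above its PDPN+ level in CD36+ RNA (2.18 to 2.35) and within 2-fold in the other comparisons, and 18.3% of its exonic bases are also exons of Zmynd15 on the other strand, which had 192, 108 and 23 counts.

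Cxcl14, a chemokine of epithelia whose receptor is debated (mm10 chromosome 13, minus strand, bases 56288643 to 56296551), reached 3.73 CPM in CD36+, 49.5 CPM in double-negative and 907 CPM in PDPN+ RNA. It was 243-fold below its PDPN+ level in CD36+ RNA (213 to 279), 18.3-fold below its PDPN+ level in double-negative RNA (17.6 to 19.1) and 13.3-fold below its double-negative level in CD36+ RNA (11.6 to 15.3). The 3 levels did not come near each other, and the double-negative library lay between the others, as it did for Cxcl13 and Cxcl12 and for 6 of the 8 basal markers. The basal list summed to 50.99, 378 and 6755 TPM in the CD36+, double-negative and PDPN+ libraries. The exceptions, lowest in the double-negative library, were Krt5 (18.4, 3.03 and 239 CPM) and Lama3 (6.93, 0.436 and 297 CPM). The part of basal cells in these levels was not tested. Cxcl15, known in the mouse as lungkine, had 5, 6 and 412 counts in the CD36+, double-negative and PDPN+ libraries, or 5.57 CPM in the last. Cxcl17, a chemokine of mucosal surfaces, had 463 counts in CD36+ RNA (7.82 CPM) and 0 counts in both other libraries. Against the 3-count floor the CD36+ level was at least 132-fold above the double-negative and at least 193-fold above the PDPN+ level. Cx3cl1, fractalkine, a membrane-bound ligand that tethers monocytes (mm10 chromosome 8, plus strand, bases 94772009 to 94782427), reached 25.8 CPM in CD36+, 12.1 CPM in double-negative and 22.8 CPM in PDPN+ RNA. Its CD36+ level was 2.14-fold above the double-negative level by CPM (1.94 to 2.35) and 1.11-fold above it by TPM. Its 1.13-fold gap between the CD36+ and PDPN+ libraries turned direction under total-count scaling and by TPM.

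Of the CC ligands that bind CCR2 or CCR3, Ccl2, Ccl7 and Ccl11 were abundant in all 3 libraries, while Ccl12 and Ccl24 had 2 counts or fewer and Ccl26 had 0. Ccl2, the main monocyte chemokine (mm10 chromosome 11, plus strand, bases 82035571 to 82037453), reached 271 CPM in CD36+, 178 CPM in double-negative and 284 CPM in PDPN+ RNA. No pair of libraries differed by more than 1.59-fold in CPM, and the 1.05-fold gap between the CD36+ and PDPN+ libraries turned under upper quartile scaling. Ccl7, its neighbour, which also binds CCR2 (mm10 chromosome 11, plus strand, bases 82045712 to 82047525), reached 78.0 CPM in CD36+, 43.9 CPM in double-negative and 328 CPM in PDPN+ RNA. It was 4.20-fold below its PDPN+ level in CD36+ RNA (4.07 to 4.34) and 7.46-fold below its PDPN+ level in double-negative RNA (7.15 to 7.80). Next in line, Ccl11, the eosinophil chemokine eotaxin (mm10 chromosome 11, plus strand, bases 82057823 to 82062955), reached 144 CPM in CD36+, 80.7 CPM in double-negative and 115 CPM in PDPN+ RNA, within 2-fold in each comparison. Its CD36+ level was 1.25-fold higher than the PDPN+ level, a direction that turned under total counts and by TPM. Of these 3 adjacent genes, Ccl7 alone was called apart, and its call in the CD36+ against the PDPN+ library is lost under upper quartile scaling (log2 ratio -1.80). Fibroblast markers, whose cells also make Ccl2, Ccl7, Ccl11 and Cxcl12, had 2, 2 and 5 of 6 genes at 10 CPM or more and summed to 63.7, 44.2 and 555 TPM in the CD36+, double-negative and PDPN+ libraries, with none at 0 counts. Their part in these levels was not tested.

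The ligands of CCR7 guide T cells and dendritic cells. Ccl21a, made by lymphatic endothelium and by high endothelial venules (mm10 chromosome 4, minus strand, bases 42772860 to 42773993), reached 34.4 CPM in CD36+, 3463 CPM in double-negative and 39.8 CPM in PDPN+ RNA. By TPM it was the 14th most abundant gene of the double-negative library, and ranked 2359th and 1925th in the CD36+ and PDPN+ libraries. The CD36+ level was 101-fold below the double-negative level (96.5 to 105), and the double-negative level was 87.0-fold above the PDPN+ level (83.8 to 90.2). Between the CD36+ and PDPN+ libraries it differed by 1.16-fold, lower in the CD36+ library, and that direction turned under upper quartile scaling. Of the 31-base words of Ccl21a transcripts, 80.6% also occur in 4 other annotated genes, which are copies such as Ccl21b and Gm21541. Those 4 genes together had 1.5, 93.6 and 8.53 estimated counts in the CD36+, double-negative and PDPN+ libraries, against 174838 counts of Ccl21a in the double-negative library. Which copy gave the reads is uncertain, and the sum over the copies differs little from the value of Ccl21a. Of the other lymphatic markers, Prox1 stood at 18.1, 21.1 and 6.15 CPM, Flt4 at 11.9, 3.09 and 4.12 CPM, Reln at 0.0676, 0.139 and 25.3 CPM, and Lyve1 had 1, 2 and 14 counts, in the same order, so none was highest in the double-negative library by a margin like that of Ccl21a. Ccl19, the other CCR7 ligand (mm10 chromosome 4, minus strand, bases 42754525 to 42756577), had 228 counts (3.85 CPM) in CD36+, 1 count in double-negative and 405 counts (5.48 CPM) in PDPN+ RNA. It was lowest where Ccl21a was highest, and 58.8% of its 31-base words are shared with 4 other genes, which had 0, 0 and 231 counts.

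**Figure D4:**
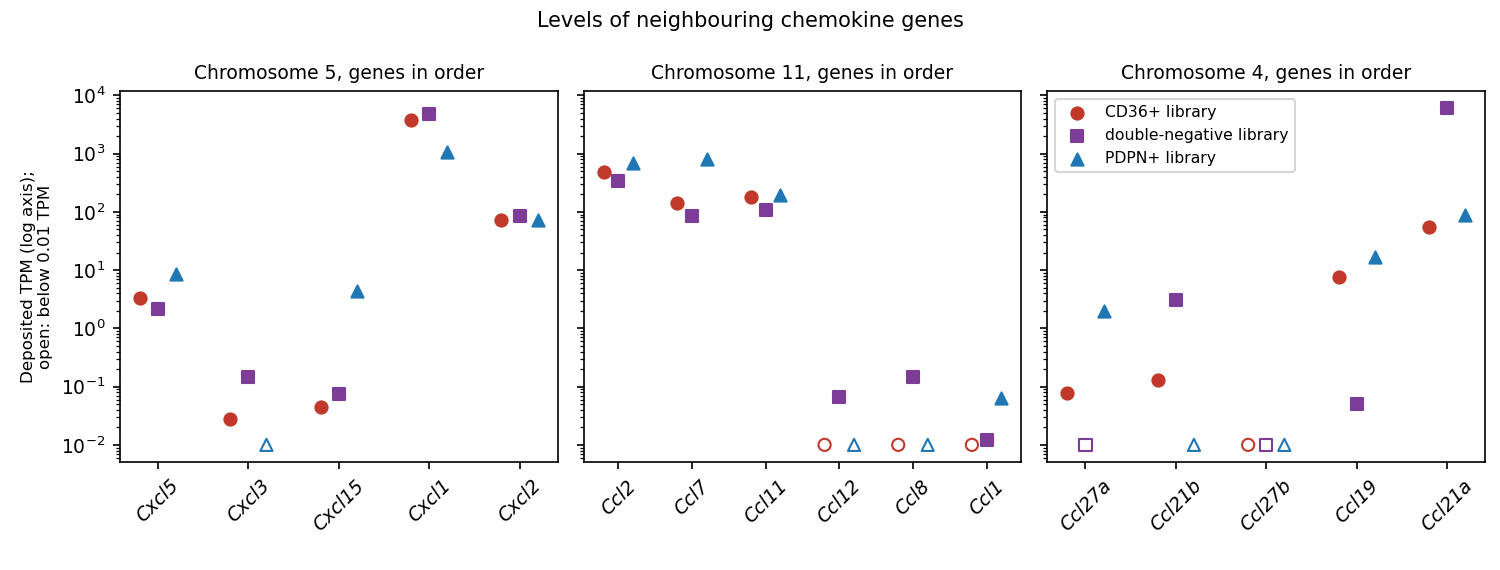
Points give the deposited TPM (log axis, open symbols below 0.01 TPM) of a single group of neighbouring members on each of chromosomes 5, 11 and 4. The CD36+, double-negative and PDPN+ libraries are shown. Members are drawn in their order, grouped with gaps of up to 500000 bases. Members of other groups on chromosomes 5 and 11, and genes outside the naming rule, are not drawn. Cxcl1 stands far above Cxcl3 and Cxcl15, and Ccl2, Ccl7 and Ccl11 stand far above Ccl12, Ccl8 and Ccl1. Ccl21a of the double-negative library stands far above the other chromosome 4 members drawn.

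Ccl25, a ligand of CCR9 known from thymus and small intestine (mm10 chromosome 8, plus strand, bases 4325210 to 4360020), reached 15.1 CPM in CD36+, 15.3 CPM in double-negative and 0.933 CPM in PDPN+ RNA. It was 16.2-fold above its PDPN+ level in CD36+ RNA (12.7 to 21.04) and 16.4-fold above its PDPN+ level in double-negative RNA (12.8 to 21.3), and by TPM these folds were 7.97 and 8.72. Its effective length was short, at 96.7, 174 and 214 bases, and 2.74% of its exonic bases lie in exons of Elavl1 on the other strand, an RNA-binding protein gene that stood at 154, 111 and 267 TPM in the CD36+, double-negative and PDPN+ libraries. Ccl22, a ligand of CCR4, had 0 counts in CD36+ and double-negative RNA, against 107 counts (1.45 CPM) in PDPN+ RNA.

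Many ligands had few or no reads. Ccl3 and Ccl4 had 0 counts in all 3 libraries, as had Xcl1, Ccl20, Ccl26 and Ccl27b. Ccl5, the T cell chemokine RANTES, had 0, 0 and 3 counts in the CD36+, double-negative and PDPN+ libraries. A count of 0 allows up to 3 counts, or 0.0507, 0.0594 and 0.0406 CPM in these libraries. This limit does not hold for Ccl27b, since all of its 31-base words also occur in Gm13306 or Ccl27a, which together had 71, 0 and 39.8 estimated counts. The other ligands below 1 CPM were Ccl1, Ccl6, Ccl8, Ccl9, Ccl12, Ccl17, Ccl21b, Ccl24, Ccl27a, Ccl28 and Cxcl3, with Ccl9 the highest at 0.649 CPM in the PDPN+ library. The levels of Ccl21b and Ccl27a are uncertain, since 100% and 57.0% of their 31-base words also occur in other genes. Those genes had 2034.5, 174903 and 2954 counts for Ccl21b and 70.3, 0 and 3.52 counts for Ccl27a, in the CD36+, double-negative and PDPN+ libraries.

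Among receptors, Cxcr4 stood apart. Cxcr4, the receptor of CXCL12 (mm10 chromosome 1, minus strand, bases 128588199 to 128592293), reached 23.1 CPM in CD36+, 0.178 CPM (9 counts) in double-negative and 4.69 CPM in PDPN+ RNA. It was 129-fold above its double-negative level in CD36+ RNA (67.9 to 283) and 4.91-fold above its PDPN+ level in CD36+ RNA (4.36 to 5.54). In the double-negative library it was 26.3-fold lower than in the PDPN+ library (13.7 to 58.1), below the 10 CPM that a call needs. By TPM the fold of the CD36+ over the PDPN+ library was 3.51, and total counts (log2 ratio 1.89) and TPM (1.79) end that call. Its ligand Cxcl12 was lowest in the CD36+ library and highest in the PDPN+ library, while Cxcr4 was highest in the CD36+ and lowest in the double-negative library.

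The receptors Cxcr2, Ccr9 and Xcr1 were low. Cxcr2, the receptor of the neutrophil ligands, stood at 4.53, 4.06 and 4.84 CPM in the CD36+, double-negative and PDPN+ libraries. Ccr9, the receptor of CCL25, stood at 4.63, 7.43 and 6.31 CPM, and Xcr1, the receptor of XCL1 on cross-presenting dendritic cells, at 1.71, 1.92 and 1.61 CPM. All 3 were within 2-fold by CPM in each comparison. From 3.05% of the 31-base words of Xcr1 to 7.70% of those of Cxcr2 also occur in many other annotated genes, 708 for Cxcr2, 994 for Xcr1 and 1093 for Ccr9. No 31-base word of Cxcr4 is shared. Ccr3, the eotaxin receptor, had 1, 78 and 0 counts in the CD36+, double-negative and PDPN+ libraries. Its CD36+ level was 91.5-fold below the double-negative level (15.9 to 3658), and the double-negative level was at least 38.1-fold above the PDPN+ level. Ccr7, Ccr8, Ccr10, Cxcr5 and Cxcr6 had 0 counts in all 3 libraries, and Cxcr3 had 0, 0 and 1. So the receptors of the abundant ligands Ccl21a, Cxcl13, Cxcl16, Cxcl9 and Cxcl10 were at or near 0 counts in the libraries that held those ligands. Ccr2, the receptor of CCL2 and CCL7, stood at 0.777, 0.535 and 0.892 CPM, and Ccr1, Ccr1l1, Ccr4, Ccr6, Cx3cr1 and Cxcr1 were lower still in each library.

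The genes around the family were taken from 3 lists. Their counts of calls are over genes with 10 CPM, as are the shares of all genes, which were 15.1% higher and 17.6% lower for the CD36+ against the PDPN+ library, 14.9% and 19.3% for the double-negative against the PDPN+ library, and 12.2% and 11.9% for the CD36+ against the double-negative library. Of 8 atypical receptors and platelet chemokines, 4 reached 10 CPM in each comparison, and 2 were called higher and 1 lower in the first, 2 and 1 in the second, and 1 and 1 in the third. The median log2 ratio over the 7 genes of the list with 1 CPM or more in a library was 0.00, 1.28 and 0.00. Each median is the value of a gene with few or no reads in the libraries compared. For the CD36+ against the PDPN+ library that gene was Ackr2, with 0 counts in both. For the double-negative against the PDPN+ library it was Ccrl2, with 4 and 1 counts. For the CD36+ against the double-negative library it was Pitpnm3, with 0 counts in both. So these medians do not describe the genes with reads. Ackr1, an atypical receptor that carries chemokines across venular endothelium, was 146-fold and 133-fold higher over the PDPN+ library in the CD36+ and double-negative libraries. Ackr4, which scavenges CCL19, CCL21 and CCL25, had 0 counts in CD36+ RNA and reached 0.0990 CPM in double-negative and 10.7 CPM in PDPN+ RNA. Ackr3, outside the naming rule, which scavenges CXCL12, stood at 37.2, 29.0 and 64.4 CPM and was not called in any comparison. Ccrl2, an atypical receptor that binds chemerin, reached 10.2 CPM in CD36+ RNA, and had 4 double-negative and 1 PDPN+ counts. Pf4, the platelet chemokine CXCL4, had 2 counts in CD36+, 21.6 CPM in double-negative and 0 counts in PDPN+ RNA. Of the 5 platelet markers, Pf4, Gp1bb and Itga2b reached 1 CPM in the double-negative library, and Gp9 and Ppbp had 0 counts there. Gp1bb stood at 0, 1.37 and 0.0270 CPM in the CD36+, double-negative and PDPN+ libraries. Itga2b stood at 8.38, 1.60 and 8.91 CPM in the same order, lowest in the double-negative library. The part of platelets in the Pf4 level was not tested.

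Of 28 genes of receptor signalling, 18, 16 and 19 reached 10 CPM in these comparisons. Of the 18 in the CD36+ against the PDPN+ library, 7 were called higher and 3 lower, against 15.1% and 17.6% of all genes. Of the 16 in the double-negative against the PDPN+ library, 4 were higher and 0 lower (14.9% and 19.3% of all genes), and of the 19 in the CD36+ against the double-negative library, 2 were higher and 3 lower (12.2% and 11.9%). The median log2 ratio of the list was 1.19, 0.10 and 0.39. Rgs16, which shortens G protein signals, reached 141 CPM in CD36+, 114 CPM in double-negative and 10.8 CPM in PDPN+ RNA. Elmo1, a link from receptors to RAC, stood at 109, 48.9 and 0.541 CPM, and Pik3r5, a subunit of the G protein-activated PI3 kinase, at 61.6, 71.0 and 4.16 CPM. Rgs2 was 4.29-fold below its PDPN+ level in CD36+ RNA. Of 14 genes that bind or cleave chemokines, 12, 11 and 10 reached 10 CPM. Of the 12, 1 was higher and 3 lower in the CD36+ against the PDPN+ library, of the 11, 0 and 4 in the double-negative against the PDPN+ library, and of the 10, 1 and 0 in the CD36+ against the double-negative library, beside the same shares of all genes. The median log2 ratio of the list was -0.94, -0.96 and 0.25. Sdc4, a heparan sulfate proteoglycan of the cell surface, reached 44.4 CPM in CD36+, 99.5 CPM in double-negative and 1606 CPM in PDPN+ RNA, and was called lower in both comparisons with the PDPN+ library. Sdc1, a related proteoglycan, stood at 27.4, 37.3 and 212 CPM, and Mmp2, a protease that can cleave chemokines, at 19.0, 25.0 and 119 CPM. Ndst1, an enzyme that sulfates heparan sulfate, went the other way, 7.85-fold above its PDPN+ level in CD36+ RNA (7.42 to 8.32).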

How the data were processed

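Per the labels' protocols, RNA from 3 sorted populations was isolated with either of 2 extraction kits, and libraries came from a low-input kit or from a stranded kit that removes ribosomal RNA. No label ties a kit or instrument to a library, so these and the populations cannot be told apart. The authors deposited, per gene, an estimated count that need not be whole, and TPM. Salmon 0.9.1 and mm10 were used, per the submitters' processing notes. The file headers also give effective gene lengths. The annotation release, strand setting and read filters used upstream are not stated in the labels.

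Estimated counts were rounded, and 52566 of 52661 identifiers matched GENCODE M21 without the version suffix. Counts were scaled with TMM factors over all 3 libraries (edgeR 4.0.16, R 4.3.3). Log2 ratios used a prior count of 2, and folds are plain CPM ratios with exact (Clopper-Pearson) 95% intervals from the counts. Intervals and the floor of 3 counts cover counting error alone, since reads without molecular identifiers may be PCR copies. Words of 31 bases were compared across M21 transcripts. Ratio functions were tested on simulated data. Python 3.11.15, numpy 2.4.6, pandas 2.3.3, scipy 1.17.1 and matplotlib 3.10.9 were used.

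Every member with at least 10 CPM is given in each library, those from 1 to 10 CPM are named, and the rest are given by count; 1 member enters the counts and is not reported here by name. The members, lists and rules were chosen with earlier results of these data known. The Ackr3, Gp9, Gp1bb, Itga2b, Ppbp, Ptprc, Cd2, Nkg7, Krt5, Lama3, Art3, Zmynd15, Elavl1, Prox1, Flt4, Reln and Lyve1 values were picked after levels were seen. So were those of Lcp1, Arhgdib, Cd53, Coro1a, Cd52, Laptm5, Cd3d, Cd3g, Cd8a and Trac. Alternatives were total-count, upper quartile and relative log expression scaling, TMM per pair, TPM (pseudocount 0.1), prior counts, level and fold limits, and unrounded counts.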

Additional observations from a re-analysis of the deposited data

How the results depend on the processing

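In the CD36+ against the PDPN+ library, the number of members called higher was 3 with total counts, TPM and a fold limit of 8, and to 2 with a minimum of 50 CPM. The number called lower was 2 under upper quartile scaling and under a fold limit of 8. In the double-negative against the PDPN+ library, the number lower was 4 by TPM and with a fold limit of 2, 6 with a minimum of 1 CPM and 1 with a fold limit of 8. In the CD36+ against the double-negative library, the number higher was 3 with a minimum of 1 CPM, 0 with 50 CPM and 2 with a fold limit of 2. The median log2 ratio of measured members in the CD36+ against the PDPN+ library was -0.47 with total counts, -0.48 by TPM and -0.19 with no minimum level, and it turned positive under upper quartile scaling (0.20) and with a minimum of 10 CPM (0.32). In the double-negative against the PDPN+ library it was -0.74 with total counts, -0.23 under upper quartile scaling and -0.25 with no minimum level. In the CD36+ against the double-negative library it was -0.19 with total counts, -0.13 by TPM and -0.17 with no minimum level. The limits change which members are counted. The cause of the other differences was not tested. No member called apart changed direction under any scaling, prior count or unit tried. Relative log expression, TMM per pair, other prior counts and unrounded counts left all 9 of these values within the tolerance of 1.5 times for counts and 0.1 for medians. No paired analysis was possible because each population had 1 library. Depth limits the genes under 1 CPM, whose folds rest on few counts, and without replicates the spread between samples of a population is unknown.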

Other observations

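Genes with a chemokine name that the rule left out by annotation were 3, of which Cxcl11 had the most reads. Cxcl11, a further ligand of CXCR3, is annotated as a polymorphic pseudogene in GENCODE M21, and reached 0.743 CPM in CD36+, 15.7 CPM in double-negative and 0.0270 CPM in PDPN+ RNA. Its level was highest in the double-negative library, as was that of Cxcl10. The pseudogenes Ccl19-ps1 and Ccl19-ps3 had 0 and 0 counts in the CD36+ and double-negative libraries, and 13 and 0 in the PDPN+ library.

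Effective lengths of several members differed between libraries beside Cxcl12. The effective length of Cxcl14 was 638, 1648 and 1626 bases in CD36+, double-negative and PDPN+ RNA, where the CD36+ value rests on 221 counts. That of Cx3cl1 was 521, 354 and 521 bases in the same order. Such values average over the transcripts of a gene, and the transcripts themselves were not analysed here.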
